A study of Mus musculus with 33 samples.

Results

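The wild type tongue of the mouse was followed from embryonic stage E13.5, when the organ is a swelling of mesenchyme invaded by muscle precursors and covered by a thin epithelium, to the day of birth (P0), when the pup starts to suckle. The comparison rests on 6 of the 33 labelled samples of the series, namely 3 wild type tongues at each stage. Wild type animals are labelled Zac1MOI and express the imprinted gene Zac1 (Plagl1, a zinc finger transcription factor) from the paternal allele alone. The other tongues at the same stages come from animals that express Zac1 from both alleles and are used here for 1 comparison only. Tongues were taken whole, and the labels do not name strain, sex, litter or pooling. The labels' protocols call the 3 samples of a group biological replicates.

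All libraries were made from total RNA after removal of ribosomal RNA, with a strand-specific protocol. RNA of E13.5 tongues was extracted with the AllPrep DNA/RNA kit and RNA of P0 tongues with TRIsure, and each stage has its own table. Stage, extraction and table therefore cannot be told apart in any difference reported here. Levels are given as RPM, the reads of a gene scaled to the mapped reads of its library, and are not divided by gene length. Libraries held 38618277 to 52425994 reads at E13.5 and 61615137 to 92249098 reads at P0, and the listed genes took 36.2% to 36.6% of them at E13.5 and 32.1% to 33.7% at P0. The most read gene at E13.5, AC027184.1, annotated as a ribozyme, took 8.58% to 9.63% of all mapped reads there and had 2237.1 to 2703 RPM at P0 (log2 fold change -5.196), so the make-up of the libraries differed between the stages. Centring each library on its median, for which the values are given below, does not depend on the share of this gene. In these libraries 3 reads correspond to 0.0325 to 0.0777 RPM.

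The tables list 27825 gene entries on the autosomes, with 26078 distinct identifiers, and each entry is counted as a gene here. Of these entries 12756 reached 1 RPM in at least 3 of the 6 libraries and were tested. A gene is called higher or lower at P0 when the adjusted p of the limma test is under 0.05. Of the tested genes, 1192 reached 1 RPM at only 1 of the stages, so a difference was built into their choice.

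A tongue at birth is mostly skeletal muscle. Its muscle precursors migrate in from the occipital somites, divide under the control of Pax3 and Pax7, leave the cell cycle as Myod1 and Myog come on, fuse into fibres and then exchange embryonic sarcomere proteins for neonatal and adult ones. The connective tissue derives from cranial neural crest, and its growth and patterning respond to Hedgehog, BMP, Wnt and FGF signals. The dorsal epithelium starts as a simple layer with keratins Krt8 and Krt18, stratifies over a basal layer with Krt5 and Krt14, and forms a cornified surface with papillae.

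Promoters of contractile genes and of cell cycle genes are shown first, because most genes of the first group were higher and of the second lower at P0, and because the sequences known to bind myogenic and cell cycle factors can be read in them. They come from RefSeq (build GRCm38.p6) and run 5′ to 3′ on the strand of the gene, within 250 bases before the start of transcription. Capitals mark the motif, and where matches on the 2 strands overlap the capitals run over both. In the first set the capitals are the E2F motif, searched as TTTCCCGC, TTTGGCGC or TTTCGCGC on either strand, in genes for a replicative helicase subunit (Mcm5), the mitotic kinase (Cdk1) and a growth-promoting transcription factor (Mycn).
Mcm5, chr8:75109316-75109407, plus strand: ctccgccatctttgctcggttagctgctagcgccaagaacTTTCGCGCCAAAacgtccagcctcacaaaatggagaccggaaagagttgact
Cdk1, chr10:69352996-69353083, minus strand: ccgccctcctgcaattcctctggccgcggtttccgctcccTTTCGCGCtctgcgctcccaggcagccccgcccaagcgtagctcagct
Mycn, chr12:12941957-12942059, minus strand: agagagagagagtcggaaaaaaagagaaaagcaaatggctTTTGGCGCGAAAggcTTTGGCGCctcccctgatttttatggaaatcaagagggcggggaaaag
The next set has the MEF2 motif in the promoters of the neonatal (Myh8) and the fast adult myosin heavy chains (Myh1 and Myh4) and of titin (Ttn). The printed site is the same 10 bases in all 3 myosin promoters.
Myh8, chr11:67276985-67277074, plus strand: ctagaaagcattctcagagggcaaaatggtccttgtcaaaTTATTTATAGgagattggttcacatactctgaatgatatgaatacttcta
Myh1, chr11:67199852-67199940, plus strand: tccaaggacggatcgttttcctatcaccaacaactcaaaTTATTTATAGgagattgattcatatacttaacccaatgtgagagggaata
Myh4, chr11:67237590-67237679, plus strand: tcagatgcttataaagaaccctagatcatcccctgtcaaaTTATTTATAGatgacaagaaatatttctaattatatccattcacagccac
Ttn, chr2:76982664-76982753, minus strand: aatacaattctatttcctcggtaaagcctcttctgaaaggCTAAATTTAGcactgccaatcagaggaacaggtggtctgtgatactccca
The last set has CAGCTG, an E-box of the kind bound by Myod1 and Myog, in the promoters of the fast myosin light chain (Mylpf) and of skeletal alpha actin (Acta1). Other contractile promoters have it too, among them those of Myh4 (1 site) and cardiac troponin T (Tnnt2, 2 sites), not printed here. Tnnt2 was called higher with a log2 fold change of only 0.53. That call was lost after quantile normalization, in limma without trend, and without E13.5 replicate 1 or 3 or P0 replicate 2 or 3.
Mylpf, chr7:127211517-127211602, plus strand: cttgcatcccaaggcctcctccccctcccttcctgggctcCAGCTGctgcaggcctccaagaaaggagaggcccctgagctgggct
Acta1, chr8:123894951-123895025, minus strand: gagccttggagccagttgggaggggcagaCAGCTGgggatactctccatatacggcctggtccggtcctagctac

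The E2F motif was present in 11 of the 45 promoters found for the cell cycle list (24.4%), against 3.19% of the promoters of all tested genes and 1.84% of all 32851 promoters in the table. None of the 44 promoters of contractile genes had it. CCAAT was present in 64.4% of cell cycle promoters and in 37.1% of those of tested genes, and TTTGAA in 37.8% against 11.7%. Among contractile promoters 18 of 44 (40.9%) had CAGCTG, against 16% of the promoters of tested genes, 15.9% had the MEF2 motif, against 1.84%, and 29.5% had TATAAA, against 7.51%. Over all promoters the shares were 37.4% for CCAAT, 17.9% for TTTGAA, 16.3% for CAGCTG, 3.19% for MEF2 and 13.6% for TATAAA. The promoters printed above were taken only from those that hold a match. All windows were 300 bases long, both strands were searched, and a match is a description of the letters.

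Most tested genes differed between the stages. At P0, 4575 genes were higher (35.9%) and 5179 lower (40.6%), 9754 in all (76.5%). At least 2-fold differences were called for 3232 higher genes (25.3%) and 3288 lower genes (25.8%), and 79.7% of the tested genes had groups that did not overlap. The median log2 fold change of all tested genes was -0.11, and it was -0.17 over the 11564 genes that reached 1 RPM at both stages. Centring every library on its median moved all values up by 0.17 on the log2 scale and turned the balance to 5163 higher and 4666 lower genes. Of the 9754 calls, 9241 were kept in the same direction after centring and 0 were called in the opposite direction, and of the 6520 calls of at least 2-fold 6511 were kept. Counts for each gene list below are to be set against 35.9% higher and 40.6% lower. The first principal component held 92.36% of the variance and separated the stages.

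**Figure D1:**
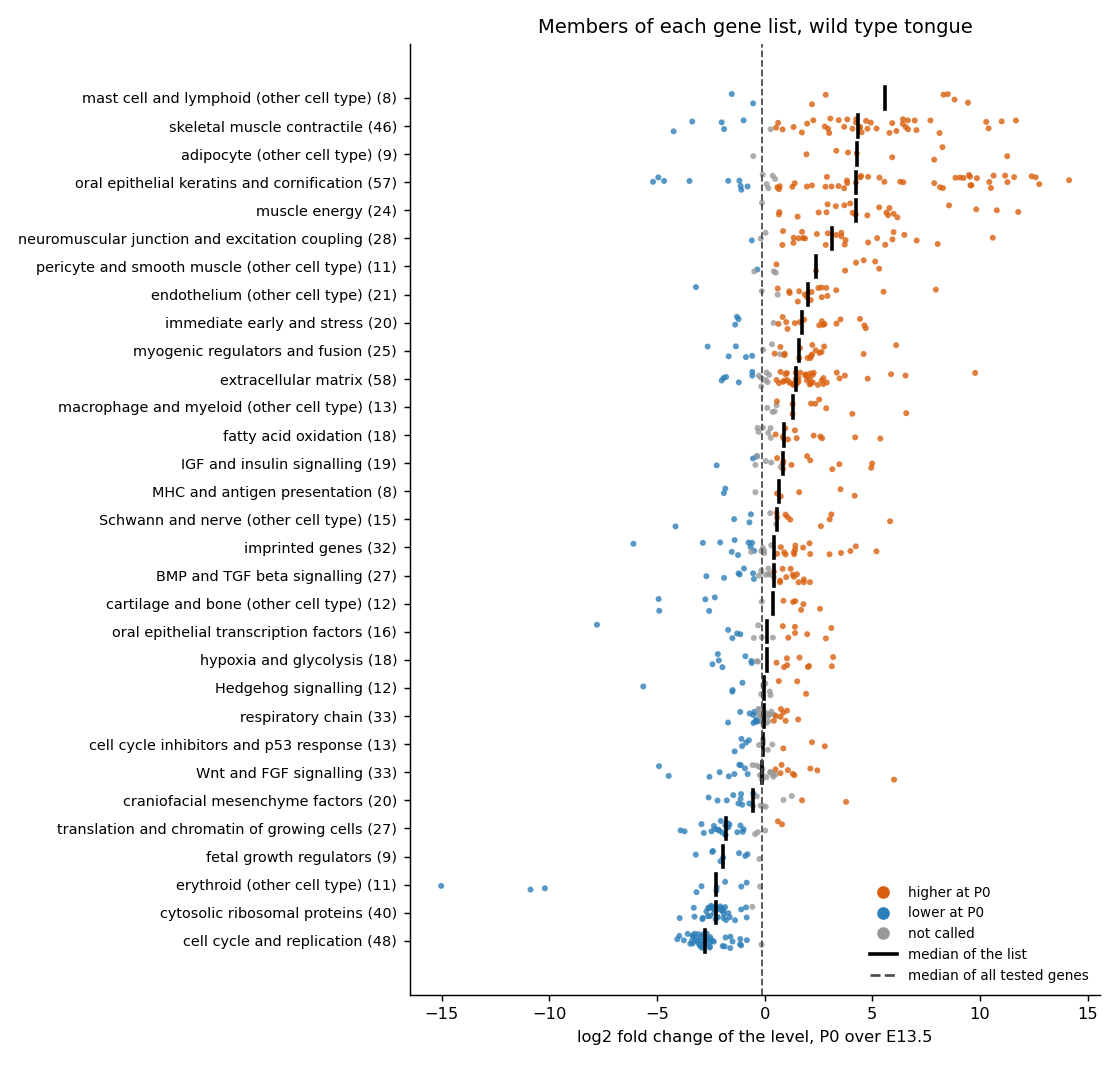
Fitted log2 fold changes (P0 against E13.5, wild type tongues) of every tested member of the gene lists, 1 point a gene and a bar at each list's median, with all tested genes for scale. Contractile, muscle energy and cornification genes lie mostly to the right of 0 and cell cycle and ribosomal protein genes to the left. For genes with 0 reads at 1 stage the plotted value depends on the 0.9 reads that the authors put in place of 0.

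Sarcomere genes rose steeply. Of 46 tested contractile genes 40 were higher and 5 lower at P0, against 35.9% higher and 40.6% lower among all tested genes, with a median log2 fold change of 4.33. Of these genes 6 reached 1 RPM at only 1 stage, and among the 40 that did so at both stages 35 were higher and 4 lower, with a median of 4.16. Reads of the 49 listed contractile genes summed to 1535 to 2384 RPM at E13.5 and to 36170 to 44270 RPM at P0. In whole-tissue RNA a larger share of muscle cells and more RNA per muscle cell cannot be told apart, and the same holds for every group of genes below. Markers of other cell types moved too and are given further on, and their part in the muscle result was not tested.

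The myosin heavy chains, the motor proteins of the sarcomere, differed from one another in direction and size. Embryonic myosin Myh3 was at 231, 281 and 151 RPM at E13.5 and 255, 360.2 and 391 RPM at P0, so its groups overlapped. Its call as higher (log2 fold change 0.63, SE 0.25, adjusted p = 0.0409) was lost without E13.5 replicate 1, E13.5 replicate 3, P0 replicate 2 or P0 replicate 3, where the adjusted p was 0.052 to 0.165, and the value was 0.03 after quantile normalization. Neonatal myosin Myh8 went from 26.1, 47.9 and 24.1 RPM to 3856, 4264 and 3589.8 RPM, a 125-fold rise (log2 fold change 6.97, SE 0.24, adjusted p = 8.37e-08). Per kilobase of exon the mean levels were 36.5 RPM for Myh3 and 2.78 RPM for Myh8 at E13.5, and 55.4 and 332 RPM at P0, so the order of the pair turned between the stages.

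Adult fast myosins were read at birth below neonatal myosin, with means per kilobase of exon of 29.1 RPM for Myh4, 14.7 RPM for Myh1 and 4.42 RPM for Myh2. Myh4, of the fastest fibres, had 1.06, 0.668 and 0.719 RPM at E13.5 and 205, 220.01 and 101 RPM at P0 (log2 fold change 7.697, SE 0.30). Myh1 had 0.388, 1.14 and 0.5496 RPM and then 131, 109 and 39.6 RPM, and replicate 3 was the lowest of the P0 libraries for both genes. Myh2, of fast oxidative fibres, had 0 reads in all 3 libraries at E13.5 and 40.6, 46.2 and 7.95 RPM at P0, at least 478-fold higher. The slow and cardiac myosin Myh7 fell, from 6.27, 22.01 and 8.41 RPM to 0.373, 0.777 and 0.607 RPM (log2 fold change -4.23, SE 0.47, adjusted p = 3.13e-05). No P0 library reached 1 RPM for it. The genes Myh3, Myh2, Myh1, Myh4 and Myh8 lie side by side on chr11 between 67078300 and 67308634, and 5 of 5 were called higher, Myh3 with the reservation above.

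**Figure D2:**
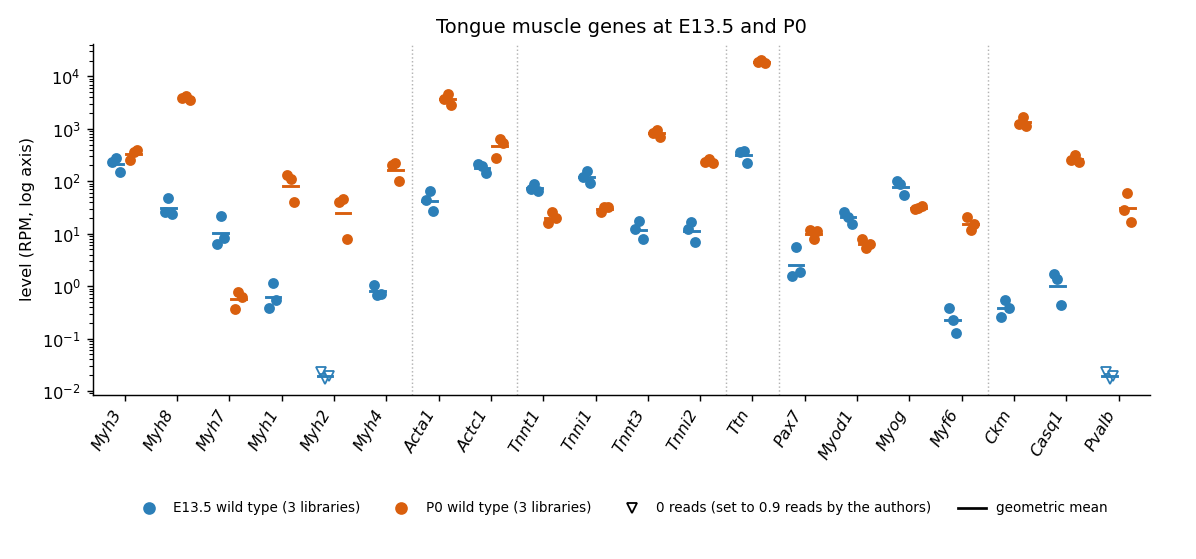
Levels of muscle genes in each wild type library (RPM, log axis), with 3 E13.5 points in blue, 3 P0 points in orange, open triangles for libraries with 0 reads and a bar at each geometric mean. Myh8 stands between 24.1 and 47.9 RPM at E13.5 and above 3500 RPM at P0, whereas Myh7, Tnnt1, Tnni1, Myod1 and Myog are lower at P0.

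The thin filament showed the same split between fast and slow isoforms. Skeletal alpha actin Acta1 had 44.1, 66.3 and 26.9 RPM at E13.5 and 3711, 4603 and 2859.9 RPM at P0 (log2 fold change 6.41, SE 0.31, adjusted p = 2.9e-07). The cardiac actin Actc1, the main sarcomeric actin of early muscle, rose less, from 213, 198 and 143 RPM to 278, 649.6 and 543 RPM (log2 fold change 1.34, SE 0.30). Fast troponin T (Tnnt3) went from 12.1, 17.2 and 7.88 RPM to 829, 941 and 706 RPM. Fast troponin I (Tnni2) went from 12.4, 16.6 and 7.04 RPM to 234, 267 and 219 RPM. Their log2 fold changes were 6.12 and 4.401, and no P0 value came near an E13.5 value. The slow forms fell. Slow troponin T (Tnnt1) was at 72.5, 90.3 and 64.2 RPM and then at 16.1, 26.4 and 19.6 RPM (log2 fold change -1.88, SE 0.19). Slow troponin I (Tnni1) was at 119, 155 and 94.6 RPM and then at 26.2, 31.8 and 32.97 RPM (log2 fold change -1.995, SE 0.18). Slow and cardiac troponin C (Tnnc1) fell by more, from 57.4, 65.5 and 50.7 RPM to 4.66, 5.45 and 6.89 RPM (log2 fold change -3.36, SE 0.17). Tropomyosin Tpm3, found in slow fibres, fell as well (log2 fold change -0.98, SE 0.12), so that of 10 troponin and tropomyosin genes 6 were higher and 4 lower. Among the light chains Myl4, the embryonic and atrial form, had 70.3, 101 and 55.02 RPM at E13.5 and 124, 136 and 130.2 RPM at P0. Its call as higher (log2 fold change 0.83) was lost after quantile normalization (adjusted p = 0.059) and with all 12 tongue libraries in the fit (adjusted p = 0.10).

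Genes of the thick filament, titin and the Z disc were called higher in 23 of 24 cases, and none was lower. Titin (Ttn), the elastic protein that runs from Z disc to M line, was the most read gene at P0, at 1.79% to 2.06% of all mapped reads. It had 355, 385 and 225 RPM at E13.5 and 18575, 20621 and 17906 RPM at P0 (log2 fold change 5.92, SE 0.29, adjusted p = 3.18e-07). Mybpc2, fast myosin binding protein C, had 4 reads in all at E13.5 and 66.4, 116 and 42.8 RPM at P0 (log2 fold change 11.01, SE 0.41). Xirp2, an actin-binding repeat protein of the muscle-tendon end, had 12 reads at E13.5 and 236, 177 and 155 RPM at P0 (log2 fold change 11.67, SE 0.73). Both were among the 12 largest rises. Nebulin (Neb), the ruler of the thin filament, rose by 5.79 and the Z disc adaptor Ldb3 by 6.55 on the log2 scale. Mylk2, the kinase of skeletal myosin light chains, had 0 reads in all 3 libraries at E13.5 and 22.96, 35.03 and 23.3 RPM at P0, at least 409.8-fold higher. Titin cap (Tcap) went from 0.958, 2.84 and 0.402 RPM to 34.1, 28.4 and 23.04 RPM.

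The regulators of muscle formation did not move as a block. Of 25 tested, 17 were higher and 5 lower, with a median of 1.6. The progenitor factor Pax7 was at 1.53, 5.65 and 1.86 RPM at E13.5 and 11.7, 7.76 and 11.2 RPM at P0 (log2 fold change 1.997, SE 0.44, adjusted p = 0.00244). Pax3 was at 3.703, 5.799 and 4.33 RPM and 24.7, 24.6 and 36.97 RPM (log2 fold change 2.64, SE 0.22). Every P0 library was thus above every E13.5 library for both. The determination factor Myod1 was lower at birth, with 26.5, 21.1 and 15.3 RPM and then 7.76, 5.31 and 6.42 RPM (log2 fold change -1.67, SE 0.22, adjusted p = 0.000101). The differentiation factor Myog was lower too, with 99.98, 88.98 and 55.9 RPM and then 29.8, 30.6 and 33.9 RPM (log2 fold change -1.34, SE 0.20). By role, 7 of 13 progenitor factors were higher and 3 lower, and 4 of 6 determination and differentiation factors were higher and 2 lower. Myf5 had 1.53, 2.098 and 2.81 RPM and 2.68, 2.501 and 2.73 RPM, overlapping values that were not called (adjusted p = 0.277). Myf6, the factor of mature fibres, had 0.388, 0.229 and 0.127 RPM at E13.5 and 20.7, 11.5 and 15.4 RPM at P0 (log2 fold change 6.11, SE 0.42, adjusted p = 1.71e-06). Mef2c, a MADS-box factor that acts with the myogenic factors, rose from 55.7, 55.6 and 43.3 RPM to 328, 267 and 304 RPM (log2 fold change 2.54, SE 0.14), and Mef2a and Mef2d rose by 2.37 and 2.21 on the same scale.

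Msc, a transcription factor of branchial arch muscle precursors, fell from 8.78, 11.5 and 9.77 RPM to 1.64, 1.47 and 1.66 RPM (log2 fold change -2.65, SE 0.20). The myoblast fusion protein Tmem8c (myomaker) had 4.71, 5.17 and 3.51 RPM at E13.5 and 18.7, 21.7 and 20.5 RPM at P0 (log2 fold change 2.202, SE 0.18, adjusted p = 4.21e-06). Integrin alpha 7 (Itga7), which anchors fibres to laminin, rose from 2.15, 3.38 and 1.75 RPM to 65.1, 50.5 and 54.8 RPM (log2 fold change 4.596, SE 0.23).

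Genes of the neuromuscular junction and of calcium handling were higher in 25 of 28 cases and lower in 1, with a median of 3.12. Among the 24 that reached 1 RPM at both stages 21 were higher and 1 lower, with a median of 2.63. The lower one, the receptor anchor Rapsn, had 14.7, 18.3 and 11.04 RPM and then 9.105, 9.28 and 10.1 RPM. Its call (log2 fold change -0.60, SE 0.19, adjusted p = 0.016) was lost after median centring and without E13.5 replicate 2 or P0 replicate 1, where the adjusted p was 0.0503 to 0.0566. The acetylcholine receptor exchanges its fetal gamma subunit for the adult epsilon subunit as the synapse matures. The epsilon gene Chrne had 0 reads in all 3 libraries at E13.5 and 1.02, 1.55 and 1.09 RPM at P0, at least 18.51-fold higher. The gamma gene Chrng had 7.95, 9.46 and 4.16 RPM and 6.28, 7.33 and 7.45 RPM, with overlapping groups and no call (log2 fold change 0.04, and -0.31 without E13.5 replicate 3). Per kilobase of exon the mean levels at P0 were 1.69 RPM for gamma and 0.724 RPM for epsilon, so both subunits were read at birth. The alpha subunit Chrna1 went from 6.94, 9.499 and 6.32 RPM to 19.2, 18.3 and 19.7 RPM (log2 fold change 1.35, SE 0.17). All 15 calcium handling genes were higher. The calcium pump Atp2a1 of fast fibres went from 23.5, 26.2 and 15.7 RPM to 1038, 1319.9 and 797 RPM (log2 fold change 5.597, SE 0.23). The store protein Casq1 went from 1.71, 1.37 and 0.444 RPM to 257, 314 and 233 RPM (log2 fold change 8.03, SE 0.42). Parvalbumin (Pvalb), a calcium buffer of the fastest fibres, had 0 reads in all 3 libraries at E13.5 and 28.5, 59.8 and 16.4 RPM at P0, at least 528-fold higher. The release channel Ryr1 rose 11.8-fold and the pump inhibitor sarcolipin (Sln) 11.8-fold. The muscle chloride channel Clcn1 went from 0.647, 1.22 and 1.099 RPM to 14.6, 10.7 and 13.8 RPM, and the sodium channel Scn4a from 0.5697, 0.381 and 0.402 RPM to 30.7, 31.4 and 23.1 RPM.

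Genes of muscle energy supply were higher in 23 of 24 cases and lower in 0, against 35.9% higher and 40.6% lower among all tested genes, with a median of 4.22. Of these 6 reached 1 RPM at only 1 stage, and among the other 18 genes 17 were higher and 0 lower, with a median of 3.84. Muscle creatine kinase (Ckm) had 0.259, 0.553 and 0.381 RPM at E13.5 and 1246, 1656 and 1142 RPM at P0 (log2 fold change 11.78, SE 0.26, adjusted p = 1.16e-08). The mitochondrial form Ckmt2 had 8 reads in all at E13.5 and 77.95, 81.99 and 53.6 RPM at P0. Glycogen phosphorylase (Pygm) went from 8.804, 11.5 and 5.71 RPM to 456, 566 and 384 RPM (log2 fold change 5.796, SE 0.24). Phosphofructokinase (Pfkm) went from 21.6, 24.7 and 25.2 RPM to 249.8, 258 and 201 RPM. Beta enolase (Eno3) went from 11.4, 21.6 and 12.03 RPM to 616, 594 and 516 RPM. These are the muscle forms of general enzymes, and every P0 library was far above every E13.5 library. Myoglobin (Mb) was at 0.829, 2.098 and 1.205 RPM and then 35.2, 25.9 and 14.6 RPM (log2 fold change 4.21, SE 0.39). The muscle subunit Cox6a2 of cytochrome oxidase was at 0.4402, 1.39 and 0.761 RPM and then 45.8, 42.4 and 35.7 RPM. Creatine kinase B (Ckb), the form of non-muscle cells, was the 1 member not called, with 7.74, 10.5 and 11.5 RPM and 9.49, 8.29 and 9.17 RPM, and the sign of its difference turned with the scaling.

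The general subunits of the respiratory chain did not follow their muscle forms. Of 33 tested, 8 were higher and 10 lower with a median of -0.03, and the median was 0.14 with 3 lower genes after median centring, so the sign depends on the scaling. Succinate dehydrogenase subunit Sdha had the largest rise (log2 fold change 1.56, SE 0.12), from 26.7, 33.2 and 30.9 RPM to 93.99, 90.5 and 82.04 RPM. Cox7c had the largest fall (log2 fold change -1.699, SE 0.18), from 11.5, 12.6 and 15.7 RPM to 3.67, 4.07 and 4.46 RPM. ATP synthase subunit Atp5a1 had 465, 321 and 369.7 RPM and 395, 375 and 351 RPM and was not called. Fatty acid oxidation was higher in 12 of 18 genes and lower in 0, with a median of 0.91, and 1 gene was called lower without P0 replicate 1. The fatty acid transporter Cd36 went from 1.35, 3.32 and 1.04 RPM to 80.3, 64.1 and 63.8 RPM (log2 fold change 5.37, SE 0.37). Lipoprotein lipase (Lpl) went from 3.13, 4.79 and 4.08 RPM to 80.4, 64.995 and 73.5 RPM (log2 fold change 4.21, SE 0.17), and both are also made in other cells, including endothelium and fat. Pdk4, the kinase that shuts off pyruvate dehydrogenase, went from 0.647, 0.229 and 0.846 RPM to 43.5, 26.3 and 40.1 RPM (log2 fold change 6.16, SE 0.44).

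Cell division genes moved the other way. Of 48 tested, 47 were lower at P0 and 0 higher, with a median of -2.77, and all 48 reached 1 RPM at both stages. Their reads summed to 1890 to 2492 RPM at E13.5 and 355 to 455 RPM at P0. All 18 licensing and replication genes and all 21 mitosis genes were lower. Mcm5 was at 103, 76.4 and 91.2 RPM at E13.5 and 12.4, 6.95 and 9.58 RPM at P0 (log2 fold change -3.25, SE 0.21, adjusted p = 1.1e-06). The sliding clamp Pcna was at 43.5, 35.8 and 39.3 RPM and 6.59, 4.196 and 5.41 RPM (log2 fold change -2.89, SE 0.18). Cyclin B1 (Ccnb1) had the values 37.1, 33.4 and 40.2 RPM and then 2.26, 2.39 and 2.43 RPM (log2 fold change -3.96, SE 0.14), and Cdk1 70.9, 59.3 and 73.3 RPM and then 8.099, 10.5 and 6.81 RPM (log2 fold change -3.02, SE 0.17). The groups of these 4 genes were far apart. The proliferation marker Mki67 fell by less, from 112, 83.1 and 97.7 RPM to 50.5, 41.9 and 40.8 RPM (log2 fold change -1.13, SE 0.14). Mycn, whose promoter with 3 E2F matches is printed above, fell from 24.6, 11.1 and 14.9 RPM to 1.04, 0.749 and 1.13 RPM (log2 fold change -4.06, SE 0.31), the largest fall of the list. Cyclin D1 (Ccnd1) went from 44.7, 47.02 and 52.9 RPM to 31.3, 21.9 and 29.2 RPM (log2 fold change -0.83, SE 0.15). E2f1 went from 7.82, 5.89 and 7.44 RPM to 3.798, 2.66 and 3.51 RPM (log2 fold change -1.09, SE 0.21). E2f2 was the member not called, at 7.61, 7.31 and 7.61 RPM and 8.23, 5.41 and 7.01 RPM (log2 fold change -0.15, and 0.02 after median centring).

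Inhibitors of the cell cycle gave 3 higher and 5 lower genes of 13, against 35.9% higher and 40.6% lower among all tested genes, so the lower share is near the background. Cdkn1a (p21), a target of p53 and of Myod1, rose from 11.9, 7.82 and 6.41 RPM to 56.4, 59.6 and 58.8 RPM (log2 fold change 2.79, SE 0.20), and Ccng1, another p53 target, by 2.197 on the log2 scale. The imprinted inhibitor Cdkn1c (p57) fell from 639, 602 and 612 RPM to 222, 268 and 217 RPM (log2 fold change -1.396, SE 0.14). Per kilobase of exon the means were 303 against 2.45 RPM at E13.5 and 116 against 16.4 RPM at P0.

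The host transcript of the miR-17-92 cluster (Mir17hg), a growth-promoting group of microRNAs under Myc and E2F control, had 7.66, 8.603 and 10.4 RPM at E13.5 and 1.899, 1.94 and 1.702 RPM at P0 (log2 fold change -2.26, SE 0.20, adjusted p = 7.44e-06). Mature microRNAs were not measured. Those read from this transcript, with the seed (bases 2 to 8) in capitals, fall into seed families of which miR-17-5p and miR-20a-5p are one and miR-19a-3p and miR-19b-3p another. They are shown because the family, not the single microRNA, sets which sites are recognised.
miR-17-5p, chr14:115043684-115043706, plus strand: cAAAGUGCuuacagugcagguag
miR-20a-5p, chr14:115044183-115044205, plus strand: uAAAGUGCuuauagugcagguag
miR-18a-5p, chr14:115043867-115043889, plus strand: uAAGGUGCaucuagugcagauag
miR-19a-3p, chr14:115044048-115044070, plus strand: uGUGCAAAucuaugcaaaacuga
miR-19b-3p, chr14:115044358-115044380, plus strand: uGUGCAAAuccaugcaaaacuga
miR-92a-3p, chr14:115044476-115044496, plus strand: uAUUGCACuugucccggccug

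Histone genes, transcribed in S phase, were added to the lists after their values had been seen. All 59 tested histone genes with symbols beginning in Hist were lower at P0, with a median of -4.26, and 32 of them reached 1 RPM at 1 stage only. The other 27 were all lower too, with a median of -4.31. Linker histone Hist1h1a had 999.9, 942 and 1038 RPM at E13.5 and 16.003, 12.1 and 14.4 RPM at P0 (log2 fold change -6.14, SE 0.13), and 50 of the histone genes lie on chr13 between 21715763 and 23764414. Genes of this family are near copies of one another, so reads may be shared between them. The variant H2afz, made outside S phase too, fell from 71.4, 61.4 and 64.7 RPM to 4.03, 4.48 and 4.68 RPM (log2 fold change -3.905, SE 0.13). Among 27 genes for translation factors and chromatin of growing cells 22 were lower and 2 higher, with a median of -1.81. Nucleophosmin (Npm1) went from 231, 166 and 202 RPM to 27.1, 26.7 and 29.98 RPM (log2 fold change -2.83, SE 0.14). The maintenance methyltransferase Dnmt1 went from 127, 97.4 and 109 RPM to 37.5, 25.1 and 32.98 RPM (log2 fold change -1.81, SE 0.17), and its partner Uhrf1 fell by 2.94 on the log2 scale. The exceptions were Tet3, which rose by 0.80 on the log2 scale, and Tet1 (log2 fold change 0.62), both of which oxidise methylated cytosine, and the call for Tet1 was lost with all 12 tongue libraries in the fit (adjusted p = 0.075).

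Cytosolic ribosomal proteins were lower in 39 of 40 tested genes and higher in 0, with a median of -2.24. Their reads summed to 6122 to 6973 RPM at E13.5 and to 1148 to 1274 RPM at P0. Rplp0, of the ribosomal stalk, had 442, 357 and 401 RPM at E13.5 and 93.4, 101 and 108 RPM at P0 (log2 fold change -1.99, SE 0.13, adjusted p = 1.33e-06). Rps14 of the small subunit fell most, from 969.9, 1093 and 987 RPM to 58.5, 65.4 and 74.4 RPM (log2 fold change -3.95, SE 0.14). Rpl3 of the large subunit went from 102, 112 and 99.4 RPM to 16.96, 16.3 and 22.2 RPM (log2 fold change -2.51, SE 0.14). Rps16 was the exception, at 2.54, 16.2 and 2.73 RPM and 3.25, 3.87 and 2.71 RPM, and without E13.5 replicate 2 its log2 fold change was 0.30. The 26 genes with no small RNA gene inside were all lower (median -2.24), as were 13 of the 14 that hold one (median -2.22). Many of these genes have processed pseudogenes, which can take a share of their reads. The 74 mitochondrial ribosomal proteins, added after seeing their values, had a median of -1.10, with 58 lower and 2 higher.

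Gene length moved with these results. Over 12306 protein-coding genes the median log2 fold change rose from -1.18 for genes with under 1 kb of exon through -0.76 at 1 to 2 kb, -0.46 at 2 to 4 kb and -0.05 at 4 to 8 kb to 0.48 at over 8 kb. The ribosomal protein genes had a median exon length of 1923 bp and the respiratory chain genes 2154 bp, with medians of -2.24 and -0.03. Histone genes had a median exon length of 576 bp. Over 8 kb 53.31% of genes were called higher and 20.58% lower, and under 1 kb 28.06% were higher and 63.64% lower. The part of length in the histone and ribosomal protein results, and in the rises of long genes, was not tested.

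**Figure D3:**
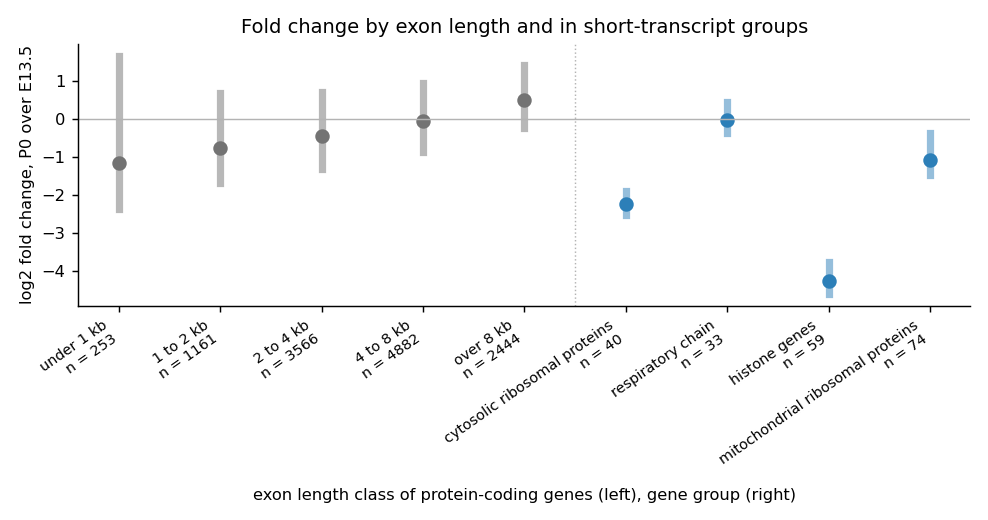
Median log2 fold change (P0 against E13.5) with the interquartile range for 5 classes of exon length in gray, and for ribosomal proteins, respiratory chain, histones and mitochondrial ribosomal proteins in blue. The gray medians climb from -1.18 to 0.48, and the medians of ribosomal proteins (-2.24) and histones (-4.26) lie below the gray medians of their length.

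Regulators of fetal growth were lower in 8 of 9 cases, higher in 0, with a median of -1.93. These genes are known from growing fetal tissue, and Lin28b, Hmga2 and Igf2bp1 are targets of let-7 microRNAs. Hmga2, a chromatin protein, had 81.7, 53.9 and 75.7 RPM at E13.5 and 5.66, 7.47 and 10.1 RPM at P0 (log2 fold change -3.200, SE 0.23, adjusted p = 2.08e-06). Lin28b, which blocks let-7 processing, went from 2.36, 1.85 and 1.99 RPM to 0.422, 0.381 and 0.748 RPM (log2 fold change -2.06, SE 0.36). The RNA-binding protein Igf2bp1 went from 61.8, 56.2 and 57.2 RPM to 10.5, 9.85 and 12.2 RPM (log2 fold change -2.43, SE 0.12). Igf2bp3 fell by less (log2 fold change -0.90, SE 0.15), so the members differed in size but not in direction. Ezh2, the methyltransferase of the Polycomb complex, went from 51.9, 44.96 and 57.5 RPM to 15.95, 7.15 and 21.4 RPM (log2 fold change -1.93, SE 0.34).

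The insulin-like growth factors themselves were higher at birth. Igf2, the main fetal ligand, had 367, 312 and 294 RPM at E13.5 and 1408, 1492 and 1296 RPM at P0 (log2 fold change 2.11, SE 0.17, adjusted p = 3.64e-06). Igf1 had 22.2, 46.3 and 52.9 RPM and 68.7, 87.96 and 52.8 RPM, so its groups overlapped. Its call as higher (log2 fold change 0.85, SE 0.31, adjusted p = 0.0303) was lost without E13.5 replicate 1, P0 replicate 1 or P0 replicate 2, where the adjusted p was 0.0615 to 0.102, and also after quantile normalization (adjusted p = 0.11). The signalling receptor Igf1r rose by 1.97 on the log2 scale. Igf2r, which clears Igf2, went from 182, 224 and 194 RPM to 282, 315 and 296 RPM (log2 fold change 0.58, SE 0.13, adjusted p = 0.00291), but its value was -0.01 after quantile normalization. Binding proteins split into 4 higher and 3 lower of 10 with the proteases. Igfbp2 fell from 264, 136 and 183 RPM to 38.2, 35.8 and 46.7 RPM (log2 fold change -2.23, SE 0.22), while Igfbp7 rose from 1.84, 2.003 and 0.761 RPM to 43.5, 40.8 and 50.98 RPM (log2 fold change 4.99, SE 0.33). Igfbp6 went from 0.0518, 0.381 and 0.5496 RPM to 7.21, 7.05 and 6.28 RPM.

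Imprinted genes, which are expressed from 1 parental allele and many of which set fetal growth, did not share a direction. Of 32 tested, 16 were higher and 10 lower. Their median was 0.44, and it was -0.04 after quantile normalization, so its sign depends on the scaling. Plagl1 itself (chr10:13090691-13131694, plus strand) had 66.1, 105 and 91.7 RPM at E13.5 and 243, 229.7 and 221 RPM at P0 (log2 fold change 1.43, SE 0.17, adjusted p = 4.84e-05). H19, the maternal non-coding RNA next to Igf2, had 3531, 2625 and 2839 RPM and 5959.5, 6459 and 5153 RPM. Its call as higher (log2 fold change 0.97, SE 0.32, adjusted p = 0.0196) was lost without P0 replicate 1, P0 replicate 2 or P0 replicate 3, where the adjusted p was 0.0563 to 0.15. The paternal ligand Dlk1 rose from 74.9, 99.1 and 82.8 RPM to 226, 246 and 211 RPM (log2 fold change 1.42, SE 0.14). The maternal transcript Meg3 of the same domain went from 39.5, 157 and 93.5 RPM to 1203, 1499 and 1267 RPM (log2 fold change 3.98, SE 0.41). Rtl1, a retrotransposon-derived gene of the same domain with a role in fetal muscle, went from 1.76, 2.63 and 3.21 RPM to 87.1, 119.6 and 69.6 RPM (log2 fold change 5.19, SE 0.25). Peg3 rose by 0.91 on the log2 scale. Airn, the transcript that overlaps Igf2r in the opposite direction, rose by 3.01 on the log2 scale, and since no source states how strand was counted, reads of Airn and Igf2r may be mixed. Neuronatin (Nnat) fell from 126, 164 and 122 RPM to 1.899, 1.53 and 2.74 RPM (log2 fold change -6.09, SE 0.22) and Magel2 fell by 2.87 on the log2 scale, both genes known for their expression in the nervous system.

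**Figure D4:**
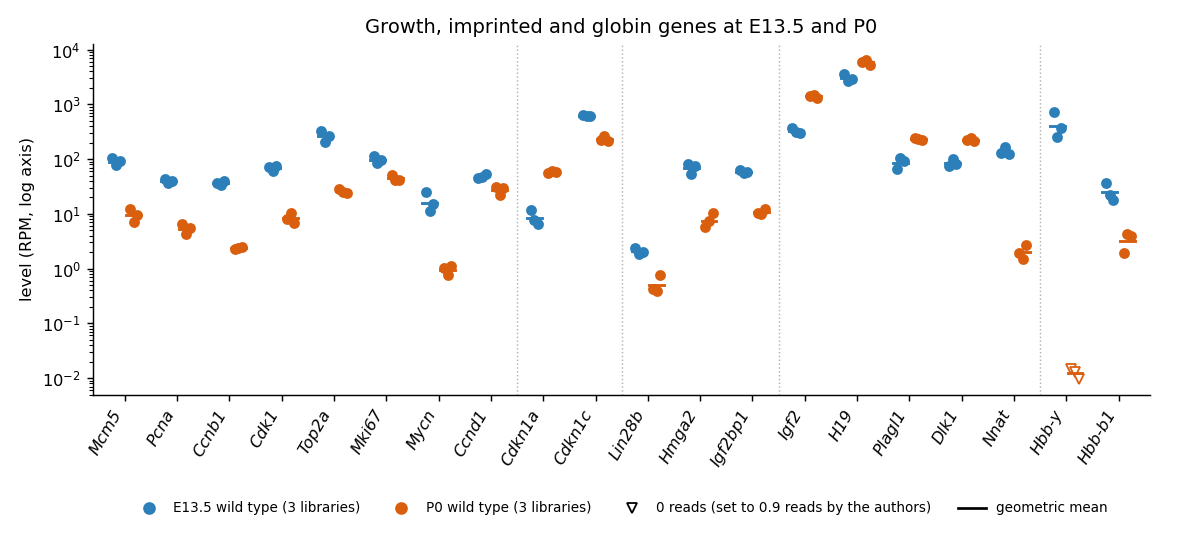
Levels of cell cycle, fetal growth and imprinted genes and of globins in each wild type library (RPM, log axis), with E13.5 in blue, P0 in orange, open triangles for libraries with 0 reads and a bar at each geometric mean. Cell cycle genes are lower at P0, Cdkn1a, Igf2 and Plagl1 are higher, and Hbb-y has 0 reads in all P0 libraries.

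Keratins Krt8, Krt18 and Krt19 of simple epithelium were lower at P0 and most tested cornification genes higher. The basal keratins Krt5 and Krt14 were already read at E13.5. Of 57 tested keratin and cornification genes 43 were higher and 9 lower, with a median of 4.24. Of these, 23 reached 1 RPM at only 1 stage, and among the 34 that did so at both stages 20 were higher and 9 lower, with a median of 0.99. The keratins of simple epithelium fell. Krt8 went from 64.8, 51.8 and 45.7 RPM to 1.04, 1.92 and 1.59 RPM (log2 fold change -5.19, SE 0.24, adjusted p = 2.34e-07). Its partner Krt18 went from 58.5, 36.7 and 37.4 RPM to 1.36, 2.49 and 1.43 RPM (log2 fold change -4.67, SE 0.27), and Krt19 fell by 4.94 on the log2 scale. Every E13.5 value of these genes was above 25 RPM and every P0 value under 3 RPM.

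Keratins of the basal layer differed in what they did. Krt5 had 168, 64.4 and 98.7 RPM at E13.5 and 106, 75.4 and 111 RPM at P0, overlapping groups with no call (log2 fold change -0.09), and the value was 0.08 after median centring. Its partner Krt14 had 248, 124 and 152 RPM and 122, 59.95 and 123 RPM. Its call as lower (log2 fold change -0.80, SE 0.32, adjusted p = 0.0439) was lost without E13.5 replicate 1, E13.5 replicate 3 or P0 replicate 2, where the adjusted p was 0.0722 to 0.15, and also after median centring (adjusted p = 0.081). E13.5 replicate 1 was the highest E13.5 library for both genes. Krt15, of basal cells too, fell by 1.17 on the log2 scale. The basal regulator Trp63 had 77.7, 44.9 and 53.5 RPM and 66.1, 78.5 and 79.2 RPM and was not called (adjusted p = 0.0951), and its call as higher after median centring had a log2 fold change of 0.55 (adjusted p = 0.030).

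Suprabasal keratins of the oral lining and of papillae were among the largest rises. Krt13 had 0.388, 0.229 and 0.655 RPM at E13.5 and 1194, 1061 and 1331 RPM at P0 (log2 fold change 11.58, SE 0.32, adjusted p = 3.25e-08). Its partner Krt4 had 1.06, 2.23 and 3.97 RPM and 974, 868 and 1121 RPM (log2 fold change 8.86, SE 0.38). Krt76, of hard palate and tongue, had 1 read in all at E13.5 and 143, 119.7 and 162 RPM at P0, a pooled ratio of 19821 (95% interval 3557 to 782900.0) that covers counting error only. Krt84, a hard keratin found in filiform papillae, had 0 reads in all 3 libraries at E13.5 and 111, 87.3 and 123 RPM at P0, at least 1621-fold higher. Krt36, another hard keratin, rose by 10.43 on the log2 scale. Krt10, of cornifying epidermis, went from 1.45, 0.572 and 0.613 RPM to 12.1, 10.6 and 11.2 RPM (log2 fold change 3.82, SE 0.35). Krt6a went from 9.45, 7.99 and 10.7 RPM to 201, 139.7 and 194 RPM, with the reservation that Krt6a and Krt6b are near copies. Of the 11 listed keratins on chr11 (99279959 to 100261029) 8 were higher and 3 lower. Of the 12 listed on chr15 (101349571 to 102032026) 8 were higher and 3 lower. These are not all keratins tested. Over all 32 tested keratin genes, a group formed after values were seen, 25 were higher and 6 lower. Among the 15 of them that reached 1 RPM at both stages 8 were higher and 6 lower.

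Most genes of the cornified envelope were close to absent at E13.5. Of 21 tested, 19 were higher and 2 lower, but 14 of the 21 reached 1 RPM at only 1 stage, so a difference was built into their choice. Of the 7 that reached it at both stages 5 were higher and 2 lower, against 35.9% higher and 40.6% lower among all tested genes, with a median of 2.82. Repetin (Rptn), a calcium-binding envelope protein of tongue papillae, had 0 reads in all 3 libraries at E13.5 and 356, 291 and 428 RPM at P0, at least 5424-fold higher, and stood first among the rises that the naming rule gave. Sprr3, a cross-bridging protein of oral and oesophageal lining, had 0 reads in all 3 libraries at E13.5 and 99.9, 117 and 151 RPM at P0, at least 1857-fold higher. Crct1 was at least 701-fold and corneodesmosin (Cdsn), the glue protein of cornified cells, at least 731-fold higher, both from 0 reads at E13.5. Dermokine (Dmkn) had 3 reads at E13.5 and 64.9, 69.4 and 85.98 RPM at P0, a pooled ratio of 3457 (95% interval 1183 to 16766). Loricrin (Lor), the chief envelope protein of skin, had 7 reads in all at E13.5 and 31.2, 21.7 and 25.7 RPM at P0 (log2 fold change 9.07, SE 0.58). Involucrin (Ivl) stayed under 1 RPM in all 6 libraries and was not tested. The crosslinking enzyme Tgm3 went from 0.104, 0.0572 and 0.106 RPM to 77.5, 52.4 and 66.2 RPM (log2 fold change 9.56, SE 0.31), and trichohyalin (Tchh), which it crosslinks in hair and papillae, rose by 9.23 on the log2 scale. The 10 listed envelope genes between 92080275 and 93449077 on chr3 were all tested and called higher.

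**Figure D5:**
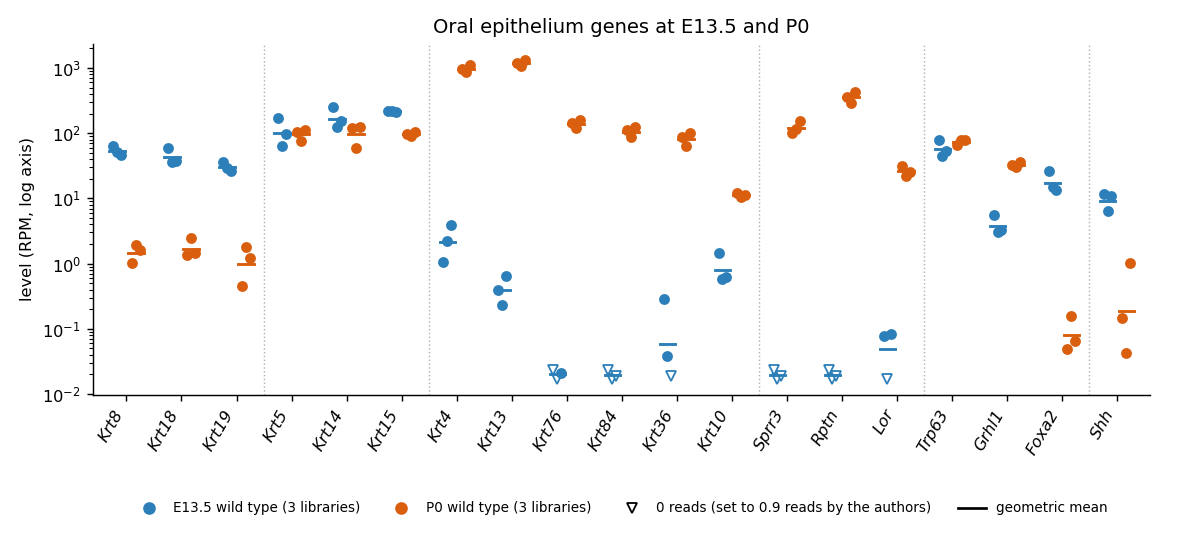
Levels of epithelial genes in each wild type library (RPM, log axis), with E13.5 in blue, P0 in orange, open triangles for libraries with 0 reads and a bar at each geometric mean. Krt8, Krt18 and Krt19 are under 3 RPM at P0, Krt4 and Krt13 are near 1000 RPM at P0 and under 5 RPM at E13.5, and the points of Krt5 overlap.

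Desmosome and basement membrane genes gave 8 higher and 1 lower of 13. Desmoplakin (Dsp) rose from 195, 128 and 146 RPM to 442, 375 and 403 RPM (log2 fold change 1.396, SE 0.17). The cadherin Dsg3 went from 2.05, 0.916 and 1.06 RPM to 35.3, 33.5 and 36.6 RPM (log2 fold change 4.81, SE 0.28). Among 16 epithelial transcription factors 7 were higher and 5 lower, against 35.9% higher and 40.6% lower among all tested genes, and no direction of the list is read from these counts. Grhl1, an activator of desmosomal cadherins, rose from 5.64, 3.01 and 3.32 RPM to 32.9, 29.98 and 35.8 RPM (log2 fold change 3.096, SE 0.23). Foxa2, a factor of endoderm, fell from 26.3, 14.9 and 13.6 RPM to 0.0487, 0.155 and 0.06504 RPM (log2 fold change -7.79, SE 0.48, adjusted p = 9.07e-07). The tight junction gene Cldn6, typical of embryonic epithelia, had 27.5, 19.6 and 21.1 RPM at E13.5 and 0 reads in all 3 libraries at P0, at least 551-fold lower. Of 11 taste cell genes listed 3 were tested, and the highest level of the other 8 was 2.06 RPM. Of the tested genes Entpd2 and Itpr3 rose (log2 fold change 2.09 and 0.80) and the channel Trpm5 fell (log2 fold change -1.27, SE 0.33).

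The signals of tongue patterning were read through ligands, receptors and targets. Of 12 tested Hedgehog genes 3 were higher and 4 lower, and 5 were higher after median centring. The ligand Shh, made in the placodes of taste papillae, had 11.6, 6.31 and 10.7 RPM at E13.5 and 0.146, 0.0424 and 1.03 RPM at P0 (log2 fold change -5.64, SE 0.94, adjusted p = 0.000461). Its receptor and target Ptch1 went from 65.5, 47.9 and 58.05 RPM to 19.8, 20.2 and 20.6 RPM (log2 fold change -1.49, SE 0.13). The target Gli1 went from 10.8, 11.6 and 13.47 RPM to 5.57, 5.595 and 6.33 RPM (log2 fold change -1.03, SE 0.15). The signal transducer Smo fell by 1.51 on the log2 scale, while Hhip, which binds and limits the ligand, rose from 2.49, 2.99 and 2.54 RPM to 9.04, 9.78 and 11.6 RPM (log2 fold change 1.92, SE 0.18).

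The BMP and TGF beta group had 13 higher and 7 lower genes of 27. Of 9 ligands 6 were higher and 2 lower, with a median of 1.003, and of 12 receptors and targets 5 were higher and 4 lower. The 2 lower ligands were Bmp4 and Bmp7. Bmp4 fell from 7.66, 5.05 and 6.17 RPM to 2.34, 2.87 and 2.86 RPM (log2 fold change -1.21, SE 0.22). Bmp7 went from 24.3, 22.1 and 21.6 RPM to 6.31, 5.101 and 7.15 RPM (log2 fold change -1.89, SE 0.16). Among the targets Id1 fell from 16.7, 15.9 and 15.01 RPM to 6.898, 6.401 and 8.098 RPM (log2 fold change -1.16, SE 0.14). Id3 went from 52.05, 37.2 and 42.6 RPM to 7.19, 6.43 and 6.41 RPM (log2 fold change -2.71, SE 0.15). Tgfb2 rose from 14.7, 26.6 and 21.9 RPM to 32.7, 54.7 and 38.5 RPM (log2 fold change 1.003, SE 0.24), and the receptors Acvr1 and Tgfbr2 rose 4.297-fold and 2.83-fold. Myostatin (Mstn), the muscle-made inhibitor of muscle growth, went from 6.91, 5.19 and 2.62 RPM to 11.99, 24.1 and 8.64 RPM (log2 fold change 1.58, SE 0.42).

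In the Wnt and FGF group 9 of 33 genes were higher and 10 lower. The epithelial ligands fell most, with Wnt10b at 3.68, 2.14 and 2.03 RPM and then 0.0325, 0.0989 and 0.184 RPM (log2 fold change -4.91, SE 0.65) and Wnt6 lower by 21.98-fold. Wnt5a, made in the mesenchyme, fell from 35.6, 22.9 and 28.9 RPM to 14.98, 9.54 and 14.2 RPM (log2 fold change -1.18, SE 0.21). The Wnt target Axin2 had 11.8, 13.4 and 15.2 RPM and 13.02, 10.8 and 13.7 RPM, overlapping groups with no call, and its sign turned with the scaling (log2 fold change -0.10, and 0.06 after median centring). The receptor Lgr5, a marker of lingual progenitors, fell from 12.2, 13.2 and 13.49 RPM to 6.52, 6.61 and 7.54 RPM (log2 fold change -0.91, SE 0.14). Fgf7, a mesenchymal signal to epithelium, rose by 2.45 on the log2 scale, and the FGF target Etv4 fell from 17.9, 11.01 and 13.95 RPM to 4.46, 3.79 and 5.13 RPM (log2 fold change -1.66, SE 0.21). Fgfr4, expressed in differentiating tongue muscle, rose from 3.55, 4.83 and 3.83 RPM to 8.86, 11.5 and 9.71 RPM (log2 fold change 1.31, SE 0.19).

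Transcription factors of craniofacial mesenchyme were lower in 10 and higher in 2 of 20 tested, with a median of -0.53, and 4 were higher after median centring. Barx1 fell from 14.5, 15.5 and 16.2 RPM to 2.61, 2.26 and 2.74 RPM (log2 fold change -2.604, SE 0.16). Hand2 went from 17.9, 17.1 and 23.2 RPM to 4.63, 3.33 and 4.82 RPM (log2 fold change -2.19, SE 0.20). Twist1 went from 7.46, 9.21 and 12.03 RPM to 3.49, 3.28 and 3.501 RPM (log2 fold change -1.46, SE 0.20). Tbx15 moved the other way, from 7.87, 8.41 and 5.45 RPM to 94.6, 97.6 and 102 RPM (log2 fold change 3.78, SE 0.17). Of 11 listed Hox genes only Hoxd3 was tested, and the others stayed at or under 2.38 RPM. Neural crest of the first arch, which forms the front of the tongue, is known to carry no Hox code. The enzymes Cyp26a1 and Cyp26c1, which break down retinoic acid, were both among the largest falls in the tongue. Cyp26a1 had 20.4, 10.8 and 17.8 RPM and then 0.0811, 0 reads and 0.217 RPM (log2 fold change -8.02, SE 0.87), and Cyp26c1 31.1, 4.48 and 8.05 RPM and then 0.227, 0.0565 and 0.379 RPM (log2 fold change -5.94, SE 0.82).

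The extracellular matrix was higher in 45 and lower in 6 of 58 genes, with a median of 1.47. Among the 53 genes that reached 1 RPM at both stages 40 were higher and 6 lower, with a median of 1.45. All 15 fibrillar and network collagens were higher, with a median of 1.98. Collagen I (Col1a1) rose from 66.6, 107 and 89.3 RPM to 442, 444 and 335 RPM (log2 fold change 2.23, SE 0.19, adjusted p = 6.4e-06). Collagen III (Col3a1) rose from 222, 401 and 342 RPM to 1362, 1328 and 1313 RPM (log2 fold change 2.095, SE 0.22). Collagen IV of basement membranes (Col4a1) went from 117, 122 and 109 RPM to 413, 479 and 415 RPM (log2 fold change 1.91, SE 0.12). Elastin (Eln) rose from 8.39, 25.98 and 13.4 RPM to 67.7, 54.8 and 61.9 RPM (log2 fold change 2.097, SE 0.33). Decorin (Dcn), a small proteoglycan that spaces collagen fibrils, went from 36.7, 25.4 and 34.4 RPM to 103, 95.8 and 85.7 RPM (log2 fold change 1.57, SE 0.15). Tenascin X (Tnxb), of loose connective tissue, had the largest rise of the list, from 0 reads, 0.305 and 0.381 RPM to 144, 110.4 and 115 RPM (log2 fold change 9.78, SE 0.88). The lower genes included the protease Mmp11, from 10.8, 11.5 and 12.3 RPM to 3.002, 2.64 and 3.05 RPM (log2 fold change -1.997, SE 0.16). The tendon factor Scx went from 4.95, 6.26 and 7.06 RPM to 3.002, 2.44 and 2.45 RPM (log2 fold change -1.201, SE 0.21), and the collagen chaperone Serpinh1 was 3.47-fold lower.

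Of 12 tested cartilage and bone genes 6 were higher and 5 lower, against 35.9% higher and 40.6% lower among all tested genes, with 3 higher after quantile normalization. Of the 10 cartilage genes among them 4 were higher and 5 lower. Aggrecan (Acan) was called higher. That call was lost after quantile normalization (log2 fold change 0.69), with all 12 tongue libraries in the fit (1.80) and in some fits without 1 library. The collagens Col2a1 and Col9a1 fell. Collagen II (Col2a1) went from 27.5, 22.7 and 25.7 RPM to 0.341, 0.805 and 2.21 RPM (log2 fold change -4.896, SE 0.55). Col9a1 went from 4.48, 6.66 and 8.33 RPM to 0.0974, 0.2402 and 0.379 RPM (log2 fold change -4.92, SE 0.50). The factor Sox6, which muscle uses too, rose from 18.52, 27.4 and 27.5 RPM to 148, 114 and 174 RPM (log2 fold change 2.57, SE 0.20). Of the 25 cartilage and bone genes listed, 13 were not tested and stayed at or under 1.07 RPM.

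Blood, vessel, nerve and immune markers moved with stage as well, and their part in the other results was not tested. The embryonic globins were lost. Hbb-y had 711, 256 and 367 RPM at E13.5 and 0 reads in all 3 libraries at P0, at least 10798-fold lower, and stood first among the falls that the naming rule gave, and Hba-x and Hbb-bh1 were at least 626-fold and 373-fold lower. E13.5 replicate 1 had the highest level of all 3. The adult alpha globin Hba-a1 had 11.1, 2.35 and 4.69 RPM and 0.682, 1.41 and 1.24 RPM (log2 fold change -2.23, SE 0.53), with reads that may be shared with its copy Hba-a2. The 17 listed erythroid genes summed to 361 to 920.1 RPM at E13.5 and 43.9 to 65.2 RPM at P0.

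Endothelial genes were higher in 18 and lower in 1 of 21, with a median of 2.0 and summed levels of 97.7 to 128.6 RPM at E13.5 and 314.6 to 345 RPM at P0. Of these genes 4 reached 1 RPM at only 1 stage, so a difference was built into their choice. Among the 17 that reached it at both stages 14 were higher and 1 lower, with a median of 1.96. Pecam1 rose from 4.95, 9.33 and 7.88 RPM to 37.4, 44.5 and 38.9 RPM (log2 fold change 2.49, SE 0.22). Cdh5 went from 5.13, 6.504 and 5.602 RPM to 37.3, 40.9 and 30.4 RPM (log2 fold change 2.65, SE 0.16). The lymphatic marker Lyve1 had 30 reads at E13.5, all in replicate 2, and 15.7, 16.2 and 15.003 RPM at P0 (log2 fold change 7.95, SE 1.09). The arterial gap junction gene Gja5 fell from 13.6, 16.7 and 12.6 RPM to 1.67, 1.03 and 2.18 RPM (log2 fold change -3.19, SE 0.28). The pericyte marker Rgs5 rose from 0.932, 1.34 and 0.296 RPM to 36.4, 22.8 and 28.2 RPM (log2 fold change 5.32, SE 0.48). Smooth muscle myosin Myh11 went from 0.0518, 0.877 and 0.381 RPM to 8.73, 9.18 and 9.29 RPM (log2 fold change 5.13, SE 0.84).

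Macrophage genes were higher in 9 and lower in 0 of 13. Of these genes 2 reached 1 RPM at only 1 stage, and among the other 11 genes 7 were higher and 0 lower. The receptor Csf1r rose from 1.55, 2.54 and 2.05 RPM to 11.8, 11.97 and 11.1 RPM (log2 fold change 2.53, SE 0.21). The mannose receptor Mrc1 went from 2.74, 4.23 and 3.38 RPM to 29.6, 22.6 and 22.4 RPM (log2 fold change 2.86, SE 0.20), whereas C1qa had 2.38, 3.74 and 2.6001 RPM and 3.94, 4.07 and 3.11 RPM and was not called. The mast cell proteases Cma1 and Tpsb2 had 0 reads at E13.5 and rose, Cma1 to 8.33, 8.28 and 10.1 RPM at P0, at least 135-fold higher, and Tpsb2 to levels at least 207-fold higher. Mast cell carboxypeptidase Cpa3 had 9 reads at E13.5 and 14.2, 12.3 and 13.7 RPM at P0. Of 15 lymphoid genes 2 were tested, and the T cell genes Cd3e, Cd3g and Cd4 stayed under 1 RPM in all libraries.

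Fat cell genes gave a mixed picture. Of 16 listed 9 were tested and 8 of these were higher and 0 lower (1 lower without E13.5 replicate 2), with summed levels of 12.5 to 17.1 RPM at E13.5 and 197.5 to 236.7 RPM at P0. Of the 9 tested genes 4 reached 1 RPM at only 1 stage, so a difference was built into their choice. Among the 5 that reached it at both stages 4 were higher and 0 lower, with a median of 3.33. The rises included genes that muscle or vessels also use, such as the lipid droplet protein Plin4, with 1 read at E13.5 and 49.03, 61.8 and 41.7 RPM at P0. Fabp4 was another, with 6 reads at E13.5, all in replicate 2, and 6.703, 10.05 and 9.702 RPM at P0 (log2 fold change 7.87, SE 0.66). The defining adipocyte genes Adipoq, Plin1, Cidec, Cfd, Retn and Lep stayed at or under 0.127 RPM in all 6 libraries, and Cfd and Lep had 0 reads throughout. Of 19 salivary gland genes 16 were not tested and stayed at or under 0.761 RPM. The list summed to 69.1 to 87.4 RPM at E13.5 and 63.96 to 71.9 RPM at P0, carried by the 3 tested genes, which other epithelia use too. Among them Krt23 went from 0 reads, 0.0763 and 0.0211 RPM to 20.1, 19.7 and 22.6 RPM (log2 fold change 9.27, SE 0.51), Prom1 from 38.8, 28.6 and 32.5 RPM to 4.84, 7.21 and 6.08 RPM (log2 fold change -2.47, SE 0.18), and Slc12a2 was not called.

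Peripheral nerve genes gave 9 higher and 4 lower of 15, with a median of 0.58, and 5 of them reached 1 RPM at only 1 stage. Mal, a membrane protein of myelin and of some epithelia, had the largest rise, from 0 reads, 0.134 and 0.655 RPM to 5.68, 6.84 and 9.54 RPM (log2 fold change 5.82, SE 0.98). Neurofilament Nefl went from 3.11, 5.26 and 5.92 RPM to 0.211, 0.198 and 0.423 RPM (log2 fold change -4.14, SE 0.41).

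Among the largest falls that belong to no list was Ncapd2, a condensin subunit, at 2539.5, 3076 and 2672 RPM and then 48.9, 55.3 and 68.3 RPM (log2 fold change -5.596, SE 0.17). A small RNA gene lies inside it, and whether its reads come from Ncapd2 was not tested. The small nucleolar RNA Snord118 went from 10.02, 13.8 and 10.8 RPM to 0.211, 0.1696 and 0.2602 RPM (log2 fold change -5.76, SE 0.29), and such short RNAs are only partly kept by library preparation.

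Tongues that express Zac1 from both alleles passed through the same stages and are another set of libraries, with no library shared. Of the 9754 genes called in wild type tongues 9706 (99.51%) had the same sign there. Over all 12756 tested genes the log2 fold changes in wild type and in those tongues had a correlation of 0.979. RNA extraction differed with stage in those tongues too, so the same sign there does not separate stage from extraction. Ckm had a log2 fold change of 11.05 in those tongues and 11.78 in wild type, Krt13 13.74 and 11.58, Mcm5 -3.29 and -3.25, and Hmga2 -2.43 and -3.200. A test of whether the stage difference depended on genotype called 0 of 12756 genes in limma, with 509 genes at an unadjusted p under 0.05. It called 0 genes after median centring too (403 at an unadjusted p under 0.05), 1 without E13.5 biallelic replicate 1 and 2 without P0 biallelic replicate 1. For scale, 5% of the tested genes are 638. A count of 0 at this sample size does not show that the stage differences are equal.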

How the data were processed

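RNA-seq levels came as log2 RPM tables that the authors deposited, with 1 table for each stage of the tongue. Per the submitters' processing notes the tools were Trim Galore 0.4.2, a read trimmer, and TopHat2 2.1.0, an aligner, with the genome build GRCm38. How reads were assigned to genes, and with which strand option, no source used here states. Overlapping genes, antisense genes and near-identical copies are therefore uncertain. In the deposited log2 values, genes under 1000 reads came out as whole reads within 0.05, and a gene with 0 reads holds the value of 0.9 reads.

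Rows were matched by probe name and identifier between the tables. Genes at 0 or more on the log2 scale (1 RPM) in at least 3 of the 6 wild type columns entered limma 3.58.1 (R 4.3.3) with an intensity trend and Benjamini-Hochberg adjustment over all tested genes. An adjusted p under 0.05 is called. Between replicates of a group the counts differed by more than sampling noise, and all were kept. P-values measure the spread between these samples.

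The rule for named genes took Plagl1, the 12 largest rises and falls among called genes with separate groups and a mean of 10 RPM or more at 1 stage (without predicted-gene symbols), and of each list its anchor genes and its called members with the largest rise and fall, of which the text gives a part. Other genes named were chosen after their values were seen. The gene groups and lists were chosen with earlier results of these data known. Folds against a group at 0 reads are lower bounds set against 3 reads in each library, and these bounds and intervals cover counting error only. The alternatives were 3 other scalings, other filters, log2(RPM + 1), limma without trend or with a robust trend, voom on the recovered reads, a replicate block, 12 libraries in the fit and leaving out each library. The limma step was tested on simulated data with few changed genes and independent noise, which cannot check its error rate in these data.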

Additional observations from a re-analysis of the deposited data

How the results depend on the processing

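The count of 9754 called genes was 9058 to 9864 under every alternative but the other filters and an added 2-fold minimum (6520), with 92.5% to 99.9% of the calls kept in the same direction and 0 turned. With 5 RPM as the minimum 7757 genes were called. With no filter, a setting that tests every listed gene, 20589 were called, 14298 lower and 6291 higher at P0. Only 4306 of the lower and 4917 of the higher calls were at least 2-fold. The median log2 fold change was -0.64 there. A gene with 0 reads holds a fixed value in reads, and 3 reads were 0.0572 to 0.0777 RPM at E13.5 and 0.0325 to 0.0487 RPM at P0. A gene with 0 reads in every library therefore has a lower value at P0. How many calls are of this kind was not tested. Same-numbered E13.5 and P0 samples had correlations of their deviations of 0.11, 0.018 and 0.075, and differently numbered samples had -0.11 to 0.057. With 3 samples a stage these values cannot decide whether same-numbered samples share more than a number. The replicate block called 9809 genes. The test of genotype by stage called 0 to 2 genes with 1 library left out. Some log2 fold changes near 0 changed sign under another scaling. After median centring the values were Atp5a1 0.14, Axin2 0.0634, Btg2 0.094, Ckb 0.0411, E2f2 0.0204, Gas1 0.10, Grhl3 0.0352, Krt5 0.0755 and Slc12a2 0.11. After quantile normalization the values were Axin2 0.0337, Btg2 0.0538, Ckb 0.0456, E2f2 0.0403, Grb10 -0.24, Igf2r -0.014, Lyz2 -0.11 and Ncl -0.15. Scaled to the reads of listed genes the values were Atp5a1 0.13, Axin2 0.0527, Btg2 0.0834, Ckb 0.0305, E2f2 0.0098, Gas1 0.0908, Grhl3 0.0246, Krt5 0.0649 and Slc12a2 0.10. With voom on whole reads the values were Atp5a1 0.12, Axin2 0.0423, Btg2 0.0781, Ckb 0.0018, Gas1 0.0806, Grhl3 0.0393, Krt5 0.0547 and Slc12a2 0.0987. With 1 library left out in turn the log2 fold changes that changed sign ran over Atp5a1 -0.15 to 0.11, Btg2 -0.38 to 0.12, Chrng -0.31 to 0.28, E2f2 -0.29 to 0.0169, Fbln5 -0.0412 to 0.15, Gas1 -0.27 to 0.0557, and over Grem1 -1.31 to 0.61, Grhl3 -0.39 to 0.19, Krt5 -0.42 to 0.27, Ncl -0.0309 to 0.0823, Rps16 -1.04 to 0.30, Slc12a2 -0.11 to 0.0382. The cause was not tested. Depth limits genes near 1 RPM, and 3 reads were 0.0325 to 0.0777 RPM.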

Other observations

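Immediate early and stress genes, which answer within minutes to handling, stretch or growth factors, were higher in 16 and lower in 3 of 20 tested, with a median of 1.73, and 4 of them reached 1 RPM at only 1 stage. Fos went from 0.4402, 0.572 and 0.359 RPM at E13.5 to 6.07, 15.7 and 14.4 RPM at P0 (log2 fold change 4.63, SE 0.38), with P0 replicate 1 the lowest of its group. Egr1 went from 0.647, 1.18 and 0.867 RPM to 9.33, 7.997 and 13.47 RPM (log2 fold change 3.52, SE 0.30). The stress factor Atf3 was at 0.129, 0.649 and 0.148 RPM and then at 3.08, 9.06 and 4.42 RPM (log2 fold change 4.43, SE 0.65), and P0 replicate 2 was the highest for both Atf3 and the nuclear receptor Nr4a1, which went from 0.932, 1.26 and 2.05 RPM to 7.498, 20.01 and 16.4 RPM. The chaperone pair split, since Hspb1 of muscle and epithelium rose (log2 fold change 1.63, SE 0.20) and the heat shock gene Dnajb1 fell (log2 fold change -1.37, SE 0.16). RNA extraction differed with stage and cannot be told apart from it in these values.

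Of 18 hypoxia and glycolysis genes 9 were higher and 7 lower, against 35.9% higher and 40.6% lower among all tested genes, with a median of 0.12, so the list as a whole is near the background. The glucose carrier of fetal cells Slc2a1 fell from 46.9, 34.7 and 42.2 RPM to 8.07, 11.98 and 8.48 RPM (log2 fold change -2.13, SE 0.18), while hexokinase Hk2 rose from 11.1, 10.3 and 10.9 RPM to 45.4, 44.6 and 39.9 RPM (log2 fold change 2.01, SE 0.11). The liver-type phosphofructokinase Pfkl fell from 35.1, 33.95 and 34.1 RPM to 7.14, 15.03 and 6.38 RPM (log2 fold change -1.96, SE 0.28) as the platelet type Pfkp rose from 1.84, 2.17 and 2.16 RPM to 14.2, 23.1 and 17.2 RPM (log2 fold change 3.12, SE 0.21). The classical class I antigens rose, H2-K1 from 0.285, 0.4196 and 0.233 RPM to 3.34, 4.66 and 2.71 RPM (log2 fold change 3.52, SE 0.37) and H2-D1 from 4.298, 2.44 and 2.68 RPM to 8.76, 9.64 and 9.36 RPM (log2 fold change 1.603, SE 0.23), whereas the non-classical H2-T23 fell from 4.998, 5.21 and 6.09 RPM to 1.22, 1.68 and 1.51 RPM (log2 fold change -1.89, SE 0.23). These genes are near copies of one another, and their reads may be shared. Of 7 melanocyte genes listed 2 were tested, and they went in opposite directions. The melanocyte and myeloid factor Mitf rose from 1.55, 2.899 and 2.96 RPM to 16.6, 18.9 and 23.9 RPM (log2 fold change 3.05, SE 0.27). Kit was called lower (log2 fold change -0.54), a call lost when levels were scaled to the reads of listed genes. The other 5 (Dct, Mlana, Pmel, Tyr and Tyrp1) stayed at or under 0.552 RPM.

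Of 19 tested genes for small structured RNAs, a group formed after their values were seen, 15 were lower and 4 higher at P0, with a median of -3.48, and 12 of them reached 1 RPM at only 1 stage. How far such short RNAs were kept by the extraction used at each stage was not tested.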
